A study of Homo sapiens with 12 samples.

Results

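Heat shock chaperones hold other proteins in a foldable state, and 10 human genes of this group were followed: HSPA1A, HSPA1B, HSPA5, HSPA8, HSP90AA1, HSP90AB1, HSPB1, HSPB8, HSPH1 and DNAJB1. Members were taken by gene symbol, 10 rows of the 58671 gene rows in the table. The 8 members other than HSPA1A and HSPA1B reached at least 1 FPKM (a level per transcript length and per library size) in some group, and all 8 did so in every group. In all, 22087 rows, 12181 of them protein-coding, reached that level in at least 1 group.

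The cells were A549, an epithelial line from a human lung tumour, either parental (WT) or lacking the endoribonuclease RNase L (RLKO). Each genotype was left untreated or was taken 6 h after transfection with 500 ng/ml of poly(I:C), made double-stranded RNA used to mimic a virus. The 12 libraries of total RNA formed 4 groups of 3 samples, and ERCC spike-in RNA had been added to each before rRNA was removed. The table gives 1 FPKM value per group, so no spread between samples can be printed, the read depth is unknown, and no comparison between genotypes carries a test. The labels do not say whether the RLKO line is 1 clone.

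HSP70 proteins bind short greasy stretches of unfolded protein and release them in a cycle driven by ATP. J-proteins such as DNAJB1 start that cycle by bringing clients to HSP70, and HSP110 proteins such as HSPH1 end it by exchanging the nucleotide. HSP90 proteins act later on kinases, receptors and other near-native clients, while small heat shock proteins such as HSPB1 and HSPB8 hold unfolded proteins without using ATP. HSPA8 and HSP90AB1 are known as constitutive forms, HSPA1A, HSPA1B, HSP90AA1, HSPH1 and DNAJB1 as forms that heat raises through the transcription factor HSF1, and HSPA5 as the HSP70 of the endoplasmic reticulum, raised by the unfolded protein response. RNase L, once active, cuts single-stranded RNA mainly after UU and UA.

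The upstream sequences are shown for the heat shock element, the motif HSF1 is known to bind. It was searched in the 250 bases before each start site as GAANNTTC or TTCNNGAA, each of which reads the same on both strands, with overlapping matches counted. The 30-base windows are from RefSeq promoters (GRCh38.p14), with the fixed letters of each match in capitals, and in HSPA5 the capitals mark the endoplasmic reticulum stress element, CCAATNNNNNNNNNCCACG on either strand.
HSPA1A: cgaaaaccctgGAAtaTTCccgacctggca
HSPA1B: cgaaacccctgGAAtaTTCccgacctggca
HSPB8: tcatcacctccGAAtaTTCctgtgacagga
HSPA8: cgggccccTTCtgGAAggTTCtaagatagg
HSP90AA1: tcTTCcgGAAggTTCgggaggcTTCtgGAA
HSP90AB1: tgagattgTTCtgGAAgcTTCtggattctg
DNAJB1: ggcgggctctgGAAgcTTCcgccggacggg
HSPB1: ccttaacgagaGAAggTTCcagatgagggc
HSPA5: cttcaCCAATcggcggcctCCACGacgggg

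These windows lie, in the order shown, at chr6:31815426-31815455, chr6:31827622-31827651 and chr12:119178832-119178861 on the plus strand, chr11:123062170-123062199 and chr14:102087105-102087134 on the minus strand, chr6:44247823-44247852 on the plus strand, chr19:14518426-14518455 on the minus strand, chr7:76302480-76302509 on the plus strand and chr9:125241385-125241414 on the minus strand. Of the 10 members, all with at least 1 promoter in the RefSeq table, 8 held the heat shock motif in at least 1 of their promoters (8 of 15 promoters), while 11.6% of 35116 promoters of all genes did. HSPA8, HSP90AA1 and HSP90AB1 held 3 units in a row (TTCNNGAANNTTC or GAANNTTCNNGAA), present in 0.441% of all promoters. The match in HSPB8, 88 bases before its start, has the same 8 letters as those in HSPA1A and HSPA1B. HSPA5 had the stress element of the endoplasmic reticulum, found in 0.0740% of promoters, and HSPH1 had neither motif in its window. A match describes the letters only, and says nothing of binding in these cells.

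The epithelial keratins KRT8 and KRT18 were at 256 FPKM or more in every group, KRT19 at 6.64 to 54.0 FPKM, EPCAM at 0.558 to 1.03 FPKM, and 5 of 6 markers of blood, endothelial and connective tissue cells under 1 FPKM, with COL1A1 at 2.06 to 7.17 FPKM. The spike-in RNAs took a larger share after treatment in WT, where 48 of 49 ERCC rows were higher and their median ratio was 1.53, than in RLKO (32 of 49 rows, 1.13). The log2 ratios of the ERCC rows had quartiles of 0.42 and 0.86 in WT, and of -0.13 and 0.29 in RLKO. Log2 changes below are on the spike-in scale, with 1 FPKM added, unless they are said to be as deposited. Protein-coding genes had a median there of -0.70 in WT and -0.24 in RLKO, against -0.17 and -0.10 as deposited. The authors' q-values do not test changes on the spike-in scale, which was computed here from the group values. The words rise and fall are kept for genes with a q under 0.05 in the authors' deposited table. By that rule 4.48% of the 22087 rows rose and 3.35% fell in WT, 0.512% rose and 0.0272% fell in RLKO, while among protein-coding rows the shares were 4.27% and 3.09% in WT and 0.821% and 0.0246% in RLKO.

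In WT cells 2 chaperones changed after poly(I:C), in opposite directions. HSPA8, the main constitutive HSP70, fell, with a log2 change of -2.87 (-2.26 as deposited). The small chaperone gene HSPB8 rose, with one of 1.95 (2.49 as deposited), and the other 6 measured members were not called. DNAJB1 and HSPH1, which heat raises, kept FPKM values within 1.06 times of their untreated ones in both genotypes. In RLKO no member was called by Cuffdiff, and 1, HSPB8, had an unadjusted p under 0.05 in the authors' deposited table. So of 8 measured members 1 rose and 1 fell in WT, and their median log2 change was -1.26 in WT and -0.23 in RLKO. A log2 change of -1 or lower was found for 5 of the 8 in WT, where 37.0% of protein-coding genes had one, and of 1 or higher for 1, where 4.70% did. In RLKO 2 members, HSPA8 and HSP90AA1, were at -1 or lower (5.34% of protein-coding genes) and none at 1 or higher (1.45%). The sign in RLKO depends on the scale: with median-ratio scaling over all kept rows HSP90AB1 was at 0.16, HSPA5 and DNAJB1 at 0.14, HSPH1 at 0.21 and HSPB1 at 0.04, while HSPA8 and HSP90AA1 remained below 0.

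**Figure D1:**
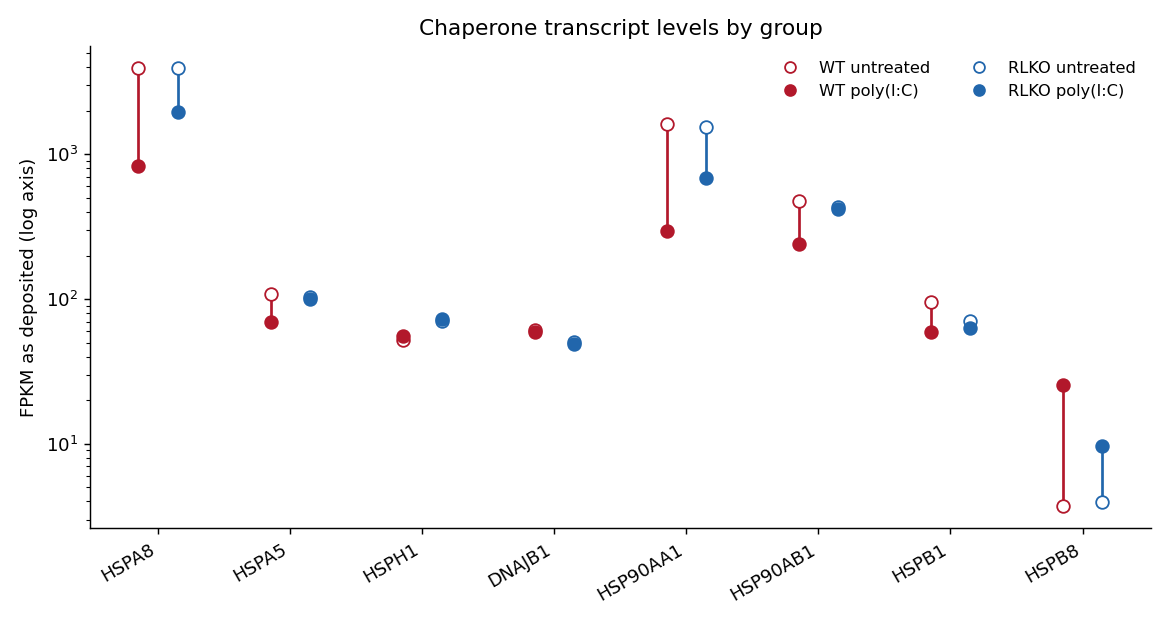
FPKM as deposited (log axis) of the 8 measured chaperones, with lines that join untreated cells (open) to poly(I:C)-treated cells (filled). Red stands for WT and blue for RLKO, and a symbol is 1 pooled group value without an error. HSPA8 went from 3947 to 825 FPKM in WT and HSPB8 from 3.70 to 25.4 FPKM, while DNAJB1 and HSPH1 have almost flat lines.

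Among the cytosolic HSP70 genes, HSPA8 was the most abundant member in all groups. This gene (ENSG00000109971, chromosome 11, 123057489 to 123063230, GRCh38), whose product HSC70 also strips clathrin from vesicles, stood at 3947 FPKM in untreated and 825 FPKM in treated WT, and at 3959.8 and 1967 FPKM in RLKO. In FPKM as deposited the untreated genotypes were level, while their log2 ratio of WT to RLKO was 0.29 on the spike-in scale. Treated WT was the lowest of the groups. HSPA8 fell 4.78-fold in FPKM in WT, with q = 0.0339 in the authors' deposited table. On the spike-in scale 13.7% of the untreated level was found in treated WT and 43.9% in treated RLKO, where the authors' deposited table has an unadjusted p of 0.205. The difference of its log2 changes, WT minus RLKO, was -1.68, or -1.25 as deposited. Introns of HSPA8 hold the small nucleolar RNAs SNORD14C, SNORD14D and SNORD14E, on the same strand. They stood at 319.8, 25.9 and 242 FPKM in untreated WT and at 218, 52.4 and 85.9 FPKM in treated WT. In RLKO SNORD14C stood at 139.7 and 531 FPKM, SNORD14D at 23.1 and 154 FPKM and SNORD14E at 156 and 117 FPKM, so the first 2 were higher after treatment where HSPA8 was lower. None of the 3 was called in either genotype.

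HSPA8 has processed pseudogenes, and reads that fit both cannot be told apart from the table. The 5 named HSPA8P1, HSPA8P5, HSPA8P7, HSPA8P8 and HSPA8P9 match the HSPA8 transcript over at least 1833 bases at 92.1% to 94.5% identity. They stood at 49.1, 50.8, 17.9, 94.8 and 5.13 FPKM in untreated WT. All 5 fell in WT, with q from 0.00180 to 0.0231 in the authors' deposited table and FPKM ratios of treated to untreated from 0.152 to 0.233, where HSPA8 had 0.209. In RLKO their ratios were 0.478 to 0.510, and HSPA8 had 0.497. How many of the pseudogene reads came from HSPA8 was not tested. HSPA8P3 and HSPA8P15, the 2 other copies with at least 1 FPKM in a group, align over at most 637 bases at up to 75.4% identity and had ratios of 2.44 and 4.35 in WT, from levels under 1 FPKM, neither of them called.

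**Figure D2:**
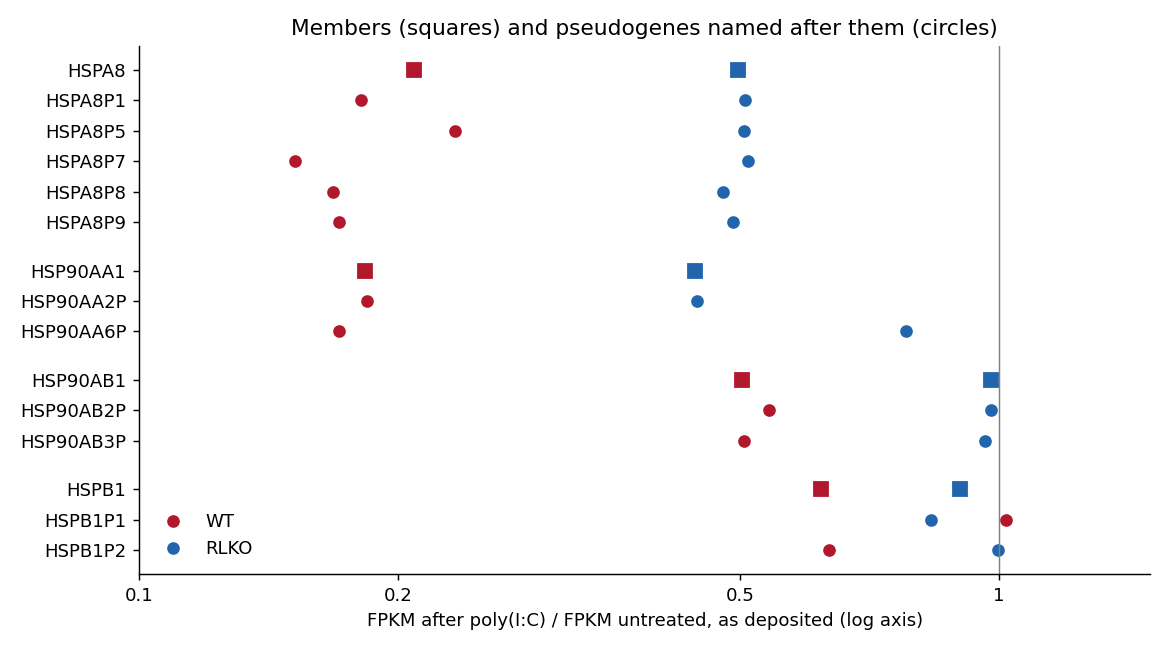
Ratio of FPKM after poly(I:C) to untreated FPKM, as deposited (log axis), for 4 members (squares) and the pseudogenes named after them with at least 1 FPKM in both untreated groups (circles), WT in red and RLKO in blue. The HSPA8 copies lie close to HSPA8, between 0.152 and 0.233 in WT, and HSP90AA2P lies at 0.184 beside 0.183 for HSP90AA1.

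HSPA5 (ENSG00000044574, chromosome 9, 125234853 to 125241330), whose product BiP gates the endoplasmic reticulum stress sensors, stood at 108 FPKM in untreated and 70.0 FPKM in treated WT. In RLKO it was at 103 and 99.6 FPKM. Treated WT was thus the lowest group, but the gene was not called (q = 0.519 in the authors' deposited table). Its log2 change was -1.23 in WT and -0.23 in RLKO. The ratio of HSPA8 to HSPA5, per length and within a library, went from 36.5 to 11.8 in WT and from 38.4 to 19.7 in RLKO.

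The co-chaperones of HSP70 that heat raises had nearly level FPKM values. DNAJB1 (ENSG00000132002, chromosome 19, 14514770 to 14529770) stood at 60.8 and 59.6 FPKM in untreated and treated WT, and at 50.8 and 49.0 FPKM in RLKO. HSPH1 (ENSG00000120694, chromosome 13, 31134974 to 31162388) stood at 52.4 and 55.6 FPKM in WT, and at 71.0 and 72.3 FPKM in RLKO. In FPKM as deposited, treated and untreated groups of a genotype lay closer together than the untreated genotypes did. Their unadjusted p-values in the authors' deposited table ranged from 0.867 to 0.955 over both genotypes. Their direction depends on the scale: in WT the log2 changes were -0.63 for DNAJB1 and -0.52 for HSPH1 on the spike-in scale, but -0.03 and 0.08 as deposited. DNAJB1 overlaps TECR on the opposite strand, which stood at 48.7 and 23.8 FPKM in WT. The ratio of DNAJB1 to HSPA8 went from 0.0154 to 0.0722 in WT and from 0.0128 to 0.0249 in RLKO. That of HSPH1 to HSPA8 went from 0.0133 to 0.0674 in WT and from 0.0179 to 0.0368 in RLKO.

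The paired HSP90 genes differed in size of change. HSP90AA1, the form heat raises (ENSG00000080824, chromosome 14, 102080738 to 102139699), stood at 1617 and 296 FPKM in untreated and treated WT, and at 1552 and 688 FPKM in RLKO. Both treated groups lay under both untreated groups, WT further. It was not called in WT (p = 0.0413 and q = 0.224 in the authors' deposited table), although its FPKM ratio of 0.183 was lower than the 0.209 of HSPA8. Its log2 change of -3.06 was the lowest of the members in WT, and that of -1.35 the lowest in RLKO. HSP90AB1, the constitutive form (ENSG00000096384, chromosome 6, 44246166 to 44253888), stood at 478 and 241 FPKM in WT, and at 430.2 and 421 FPKM in RLKO, so that treated WT alone was low. It was not called (q = 0.396 in the authors' deposited table), with log2 changes of -1.60 in WT and -0.21 in RLKO.

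Per length, HSP90AA1 was 3.38 times as abundant as HSP90AB1 in untreated and 1.23 times in treated WT, and 3.61 and 1.63 times in RLKO. The coding sequences of the pair align at 77.5% identity. Their pseudogenes are closer: HSP90AA2P matches HSP90AA1 at 97.3% over 2195 bases, and HSP90AB3P matches HSP90AB1 at 97.2% over 2173 bases. HSP90AA2P stood at 415 and 76.4 FPKM in WT and 442 and 197 FPKM in RLKO, and HSP90AB3P at 116 and 58.4 FPKM in WT and 111 and 106 FPKM in RLKO. The FPKM ratio of treated to untreated was 0.184 in WT and 0.446 in RLKO for HSP90AA2P, with 0.183 and 0.443 for HSP90AA1, and 0.505 and 0.962 for HSP90AB3P, with 0.503 and 0.979 for HSP90AB1. Of the other copies with at least 1 FPKM in a group, HSP90AB2P had ratios of 0.540 in WT and 0.980 in RLKO. HSP90AA6P had 0.171 and 0.779, and HSP90AB4P 2.41 and 0.571, both from 1.86 FPKM or less in every group. The share of common reads was not tested.

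Of the small heat shock genes, HSPB8 rose in WT and HSPB1 was not called. HSPB8 (ENSG00000152137, chromosome 12, 119178642 to 119221131), whose product works with BAG3 and HSP70 to send misfolded proteins to autophagy, stood at 3.70 and 25.4 FPKM in untreated and treated WT. In RLKO it stood at 3.97 and 9.63 FPKM. Both treated groups were above both untreated groups, and treated WT was the highest. HSPB8 rose 6.85-fold in FPKM in WT, with q = 0.00546 in the authors' deposited table. In RLKO the FPKM ratio was 2.43, with p = 0.0174 and q = 0.848 in the authors' deposited table. The difference of its log2 changes, WT minus RLKO, was 1.01, or 1.39 as deposited. BAG3 was at 24.8 to 25.7 FPKM in all groups.

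Within HSPB8 the table also lists AC084880.3, an antisense transcript, at 0.0437 FPKM in untreated and 3.56 FPKM in treated WT, and at 0.0918 and 0.260 FPKM in RLKO. It was not called, and the labels do not say whether the libraries kept the strand. The pseudogene AC084880.1, on the same strand within HSPB8, stood at 20.4 to 23.0 FPKM in all groups. HSPB1 (ENSG00000106211, chromosome 7, 76302544 to 76304295), which encodes HSP27, stood at 96.1 and 59.6 FPKM in WT and at 70.2 and 63.2 FPKM in RLKO, and was not called (q = 0.468 in the authors' deposited table). Untreated WT was its highest group. The ratio of HSPB8 to HSPB1 went from 0.0385 to 0.425 in WT and from 0.0565 to 0.152 in RLKO.

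HSPA1A and HSPA1B, the classic heat-raised HSP70 genes, could not be read from this table. HSPA1A (ENSG00000204389, chromosome 6, 31815464 to 31817946) is listed at 0 in all 4 groups. HSPA1B (ENSG00000204388, chromosome 6, 31827735 to 31830255) is listed at 0.0114 FPKM in untreated WT, 0 in treated WT, and 0.00606 and 0.00519 FPKM in RLKO. Neither was tested by Cuffdiff, their sum stays under 1 FPKM, and no fold is given. Their coding sequences are identical at 1922 of 1926 bases, so reads of one also fit the other.

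The listing was shared by their surroundings. Of 97 protein-coding genes starting within 1 Mb of HSPA1A, 78 (80.4%) were at 0 in all groups and 94 were under 1 FPKM, while 2169 of the 19797 other protein-coding genes were at 0. CSNK2B, CLIC1, LSM2 and DDX39B, which cells of most kinds express and which were picked after their values were seen, were among those at 0. The chaperone genes HSPA1L, 0.00585 Mb from HSPA1A, BAG6, at 0.176 Mb, and PFDN6, at 1.47 Mb, also had 0.0717 FPKM or less in every group. HSP90AB1, 12.4 Mb away on the same chromosome, was measured. The value of 0 therefore says nothing of whether heat-raised HSP70 was transcribed in these cells.

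**Figure D3:**
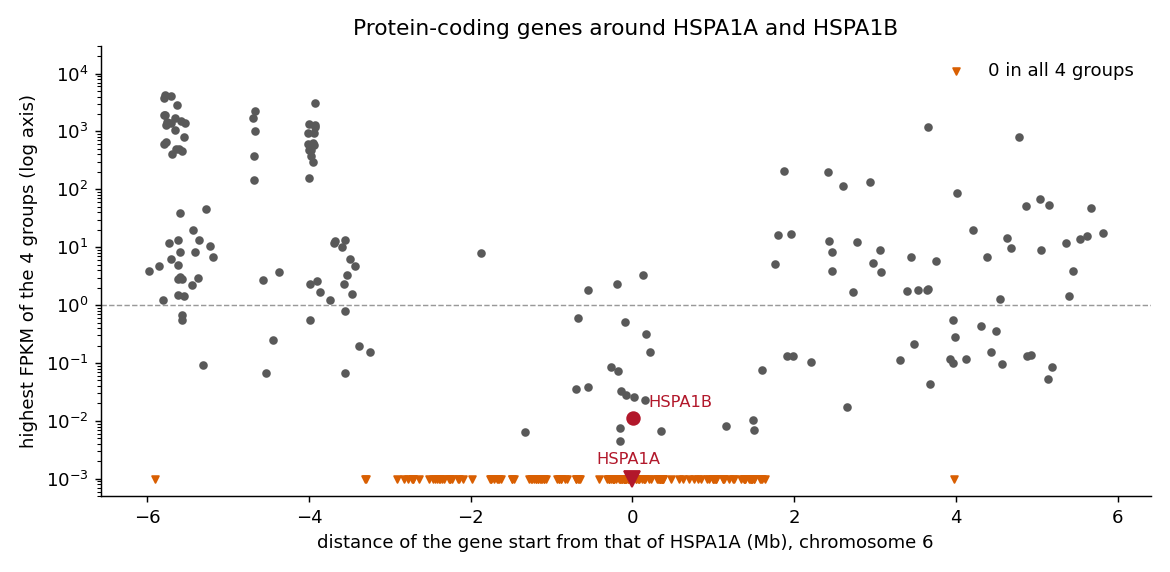
Highest FPKM of the 4 groups (log axis, dashed line at 1 FPKM) for protein-coding genes on chromosome 6 by distance of their start from that of HSPA1A, with genes at 0 in all groups as triangles on the floor of the axis. HSPA1A and HSPA1B, in red, lie inside a block of genes listed at 0, as 78 of the 97 genes within 1 Mb are.

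Before treatment the chaperone levels of the genotypes could be compared only without a test. The order of the 8 measured members by FPKM in WT ran from HSPA8 through HSP90AA1, HSP90AB1, HSPA5, HSPB1, DNAJB1 and HSPH1 to HSPB8, and no spread tells which neighbours in it differ. Of protein-coding genes, 99.8% lay below HSPA8 in untreated WT and 23.9% below HSPB8. In treated WT the order stayed, but HSPB1, DNAJB1 and HSPH1 came to lie between 55.6 and 59.6 FPKM, and 72.7% of protein-coding genes lay below HSPB8. The log2 ratio of untreated WT to untreated RLKO ran from -0.14 for HSPH1 to 0.74 for HSPB1, with a median of 0.36, where protein-coding genes had 0.24. None reached a size of 1, which 1.33% of protein-coding genes did on the higher and 0.246% on the lower side. As deposited, the median ratio of the members was 0.06, with HSPH1 at -0.43 and HSPB1 at 0.45.

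The responses of the genotypes were then set side by side. The change was lower in WT than in RLKO for 7 of the 8 measured members and higher for HSPB8, with a median difference of -0.98. Protein-coding genes had a median difference of -0.47 with quartiles of -0.98 and 0.05, so most of them were also lower in WT. A difference of -1 or lower was found for 4 members (HSP90AA1, HSPA8, HSP90AB1 and HSPA5), where 24.1% of protein-coding genes had one, and of 1 or higher for HSPB8, where 4.42% did. As deposited, 2 members had a difference of -1 or lower, HSP90AA1 at -1.27 and HSPA8 at -1.25, and those of DNAJB1 and HSPH1 were 0.02 and 0.06. No difference between the genotypes was tested.

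Since abundant transcripts had lower changes in WT, each member was placed among protein-coding genes within 2-fold of its level in untreated RLKO, a group the WT comparison does not use. In WT the change of HSPA8 lay above that of 50.0% of 58 such genes, HSP90AA1 above 35.0% of 140 and HSPB1 above 54.4% of 2296. HSPA5 lay above 67.0% of 1671 genes, DNAJB1 above 77.5% of 2858, HSP90AB1 above 78.4% of 403 and HSPH1 above 85.1% of 2282. HSPB8 lay above 98.6% of 2661 genes in WT and 98.1% in RLKO. In RLKO, where the same untreated group sets both level and change, HSP90AA1 lay above 14.3% and HSP90AB1 above 89.8% of their neighbours. These places are descriptions of pooled values.

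**Figure D4:**
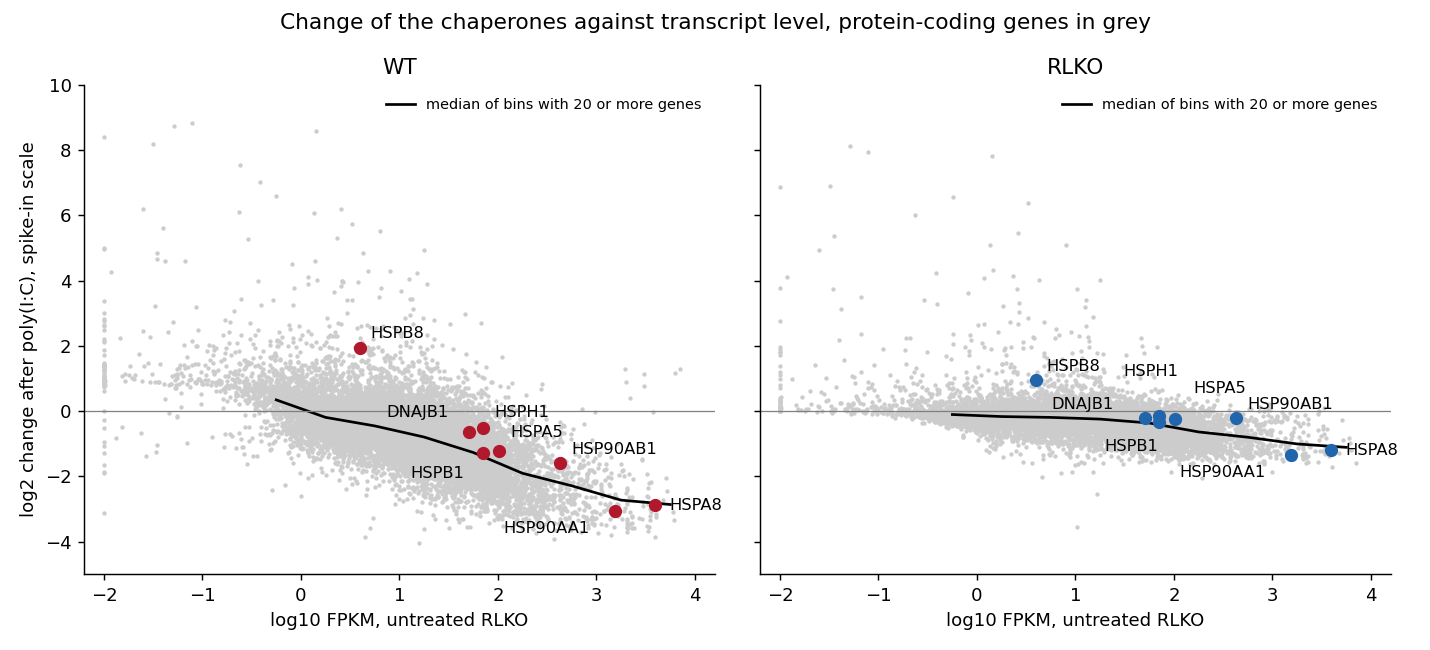
Log2 change after poly(I:C) on the spike-in scale (vertical axis) against log10 FPKM in untreated RLKO (horizontal axis, values under 0.01 drawn at 0.01) for 12181 protein-coding genes (grey) and the 8 measured chaperones, in WT (left, red) and RLKO (right, blue), with the median by level as a line. HSPA8, at -2.87 in WT, lies on the line for its level, and HSPB8, at 1.95, lies well above it.

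Across the 8 members, the WT log2 change and the untreated RLKO level had a Spearman rho of -0.86, and change and transcript half-life one of -0.64; the points share their libraries and are 8 genes, so these only describe the group. Half-lives, which the authors took from an earlier study named in the header without a unit and which are read here as hours, were longest for HSP90AA1, then 18.0 for HSPB1, 15.3 for HSP90AB1, 10.5 for HSPA5, 8.17 for HSPH1, 6.96 for HSPA8, 3.64 for HSPB8 and 2.27 for DNAJB1. Over protein-coding genes the WT median was -0.43 for 4677 genes under 4 h and -1.66 for 1056 genes at 16 h or more.

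The members also differ in base makeup. The share of UU and UA among all neighbouring base pairs of the transcript, the RNase L sites named above, was 15.3% in HSPH1, 11.7% in HSPA5, 11.1% in HSP90AA1, 10.9% in HSPA8, 10.4% in HSPB8, 9.91% in HSP90AB1, 9.59% in DNAJB1 and 5.18% in HSPB1. HSPH1 had the highest share and the longest transcript, at 5191 bases. Whether the share of these sites goes with the change was not tested. HSPB1 was read on its coding transcript of 909 bases, since the deposited length of 1455 bases belongs to no coding transcript in the annotation. GC content ran from 36.8% in HSPH1 to 63.4% in HSPB1, and the median of protein-coding genes was 44.5%.

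The members with the highest and the lowest difference of responses were HSPB8 and HSP90AA1. By Euclidean distance over the WT change, the RLKO change and the untreated log2 ratio, the protein-coding genes nearest to HSPB8 were SPRY2 (distance 0.13), DICER1 (0.16) and ZFP36L2 (0.24). SPRY2 stood at 6.60 and 40.2 FPKM in WT and at 6.59 and 15.5 FPKM in RLKO. Nearest to HSP90AA1 were COPS4 (0.07), OST4 (0.11) and SOD1 (0.11), and SOD1 stood at 486 and 84.9 FPKM in WT and at 441 and 189.9 FPKM in RLKO. The likeness is over 4 group values.

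The rest of the chaperone network was read from 9 lists, with 97 measured rows beside the members. Of these, 3 rose and 6 fell in WT, where 4.48% and 3.35% of all rows did. Among rows with at least 10 FPKM in a group, 3.04% rose and 6.03% fell in WT. In RLKO none of the 97 was called, where 0.512% of all rows rose and 0.0272% fell. The 97 rows had a median log2 change of -1.32 in WT and -0.32 in RLKO, where protein-coding genes had -0.70 and -0.24. In WT 84 of the 97 lay below 0, and most protein-coding genes did so too, as their upper quartile was -0.10. Neither these rows nor the single lists were matched for transcript level, and abundant transcripts had lower changes in WT. The difference of responses was -1 or lower in 46 of the 97, where 24.1% of protein-coding genes had one. It was 1 or higher in 3 (HSPB6, DNAJA4 and AHSA2P), where 4.42% of protein-coding genes had one. HSPB6, also among the 3 that rose, and DNAJA4 passed the filter by their treated WT value alone. Their high difference was therefore partly set by the filter.

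Folding machines of the cytosol had the lowest median of the lists, without a match for level. The measured subunits stood at 31.1 to 1361 FPKM in untreated RLKO. Protein-coding genes within 2-fold of HSPA5 there (103 FPKM) had a WT median of -1.56, and those within 2-fold of HSP90AB1 (430.2 FPKM) one of -2.26. Whether the list differs from genes of its level was not tested. Of 13 measured subunits of the CCT chaperonin, which folds actin and tubulin, and of prefoldin, which feeds it, 1 fell and none rose, with a median of -2.22 in WT and -0.78 in RLKO. PFDN5 fell from 897 to 146 FPKM in WT (q = 0.0161 in the authors' deposited table) and stood at 730.4 and 274 FPKM in RLKO. Of 11 mitochondrial chaperones and proteases, all below 0 in WT as most protein-coding genes were, none was called. HSPD1, the mitochondrial HSP60, stood at 597 and 242 FPKM and its partner HSPE1 at 978 and 202 FPKM in WT. The measured HSP70 and HSP110 relatives, 8 rows, had a median of -1.46 in WT with none called. HSPA9 stood at 541 and 222 FPKM in WT (q = 0.0560 in the authors' deposited table) and HSPA4 at 131 and 94.0 FPKM. HSPA6, a strictly heat-raised HSP70 gene on chromosome 1, was at 0.0387 to 0.0899 FPKM in all groups.

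Of 13 measured HSP90 relatives and co-chaperones none was called, and the median was -1.32 in WT. AHSA1, which speeds up HSP90, stood at 459 and 218 FPKM in WT, and HSP90B1, the HSP90 of the endoplasmic reticulum, at 364 and 162 FPKM. Of 24 endoplasmic reticulum chaperones and unfolded protein response genes, 1 rose and 3 fell in WT, with a median of -1.11. ERN1, which encodes the stress sensor IRE1, rose from 3.81 to 13.9 FPKM. CANX (calnexin) fell from 49.2 to 18.9 FPKM, MANF from 149.9 to 33.3 FPKM and SDF2L1, a partner of BiP, from 20.4 to 6.79 FPKM.

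Among 16 other J-proteins 1 rose in WT. DNAJB5, a relative of DNAJB1, went from 2.09 to 12.5 FPKM in WT (log2 change 1.63, q = 0.00180 in the authors' deposited table) and stood at 1.91 and 5.13 FPKM in RLKO, uncalled. The list's WT median was -0.76. Of 3 measured small heat shock relatives, HSPB6 rose from 0.383 to 3.80 FPKM in WT, while RLKO stood at 0.413 and 0.434 FPKM, and it passed the filter by its treated WT value alone. HSPB11, an intraflagellar transport subunit despite its name, fell from 65.3 to 16.1 FPKM. Of 9 nucleotide exchange and docking factors HIKESHI, which carries HSP70 into the nucleus, fell from 98.5 to 18.5 FPKM. HSF1 is listed at 0 in all groups, as are HYOU1 and DNAJA3, which most cells express and which were picked after their values were seen, so its 0 is not read as a low level. HSF2 stood at 6.59 and 4.61 FPKM in WT, and HSBP1, an HSF1-binding protein, at 339 and 69.1 FPKM, uncalled.

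**Figure D5:**
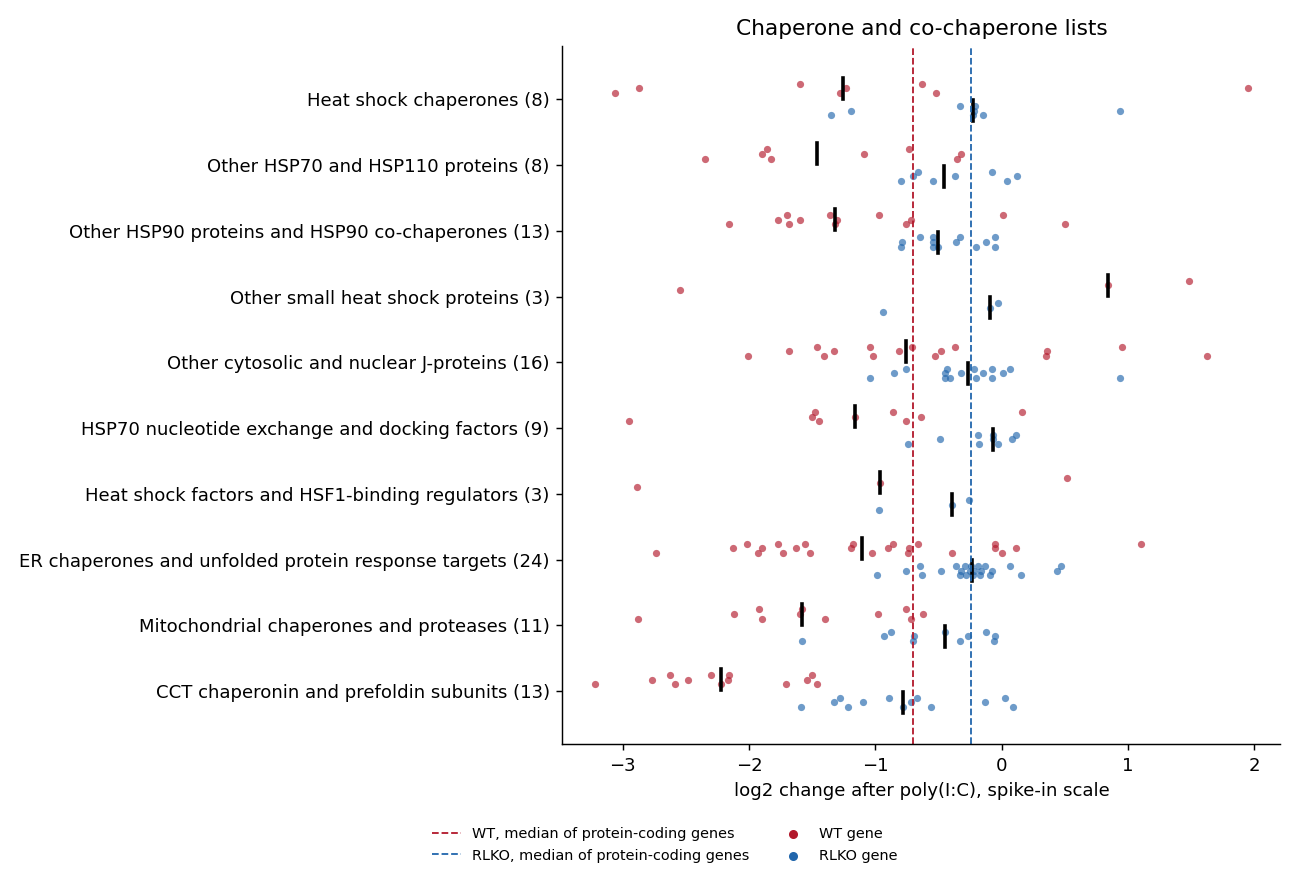
Log2 change after poly(I:C) on the spike-in scale for each measured gene of the chaperones and 9 related lists (number of rows in parentheses), WT in red and RLKO in blue; black bars are medians over genes, not errors, and dashed lines are the medians of protein-coding genes, -0.70 and -0.24. The WT median was -1.26 for the heat shock chaperones and -2.22 for the chaperonin and prefoldin subunits, and the lists are not matched for transcript level.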

How the data were processed

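Total RNA of 12 samples, 3 in each of 4 groups, was sequenced after rRNA depletion. Per the submitters' processing notes, reads were handled with Trimmomatic 0.32 and FastQC, the aligners Bowtie2 2.0.2 and TopHat2 2.0.6, build GRCh38.p12 and Cuffdiff 2.2.1, with no settings stated. The authors deposited 1 FPKM value per group, and p-values with q-values for treatment within each genotype, per the file headers. GC content in percent, transcript length and half-life are also the authors' deposited values. The labels do not state Cuffdiff's library scaling.

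Rows with a status of HIDATA (86) and 45 repeated identifiers were left out, and rows with at least 1 FPKM in a group were kept. Groups were divided by the median ratio of 49 ERCC rows to their geometric mean over the 4 groups. A pseudocount of 1 was added before taking log2, so changes of low genes are understated. The scaling was tested on simulated data. Coordinates and transcripts are from GENCODE v29, in which all 58671 gene rows were found, and promoters from RefSeq (GRCh38.p14). Identity is that of the best local alignment (Biopython 1.88, Python 3.11.15). Calls are the authors' q-values under 0.05, since no column holds a single sample. These come from Cuffdiff's model of the authors' samples, whose spread cannot be seen here and for which separate cultures are not stated. Members and lists were chosen with earlier results of these data known. Named were the members, up to 4 called genes of each list or its 2 most abundant, 4 fixed genes (HSF1, HSPA6, BAG3, HSPD1) and the 3 genes nearest to the members at either end. Pseudogenes, overlapping genes and the neighbours of HSPA1A were added after values were seen. The level of the gene targeted in RLKO is not reported here. Alternatives were other scales, pseudocounts, ERCC sets, filters and thresholds.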

Additional observations from a re-analysis of the deposited data

How the results depend on the processing

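No paired analysis was possible because the table holds 1 value per group, and for the same reason leaving out each replicate was not run. The median log2 change of the 8 measured members, -1.26 in WT, was -0.65 in FPKM as deposited, -0.71 with median-ratio scaling over kept rows, -1.28 with ERCC rows of at least 10 FPKM and -1.27 with a pseudocount of 0.1 or none. The RLKO median of -0.23 was -0.05 as deposited and turned to 0.14 with median-ratio scaling. The median difference of responses, -0.98, was -0.55 as deposited, -0.80 with median-ratio scaling and -0.99 with the other ERCC set or other pseudocounts. An alternative chosen after seeing the data left out HSPA8, HSP90AA1, HSP90AB1 and HSPB1, whose reads pseudogenes can share; the medians were then -0.58 in WT, -0.19 in RLKO and -0.39 for the difference. Members with a difference of -1 or lower numbered 2 as deposited, not 4, and HSPB8 no longer reached 1 with the other ERCC set, which left 0. Taking HSPA1A and HSPA1B as 1 member changed nothing, as their sum was not kept. The 2 calls in WT held at q under 0.1 and with Benjamini-Hochberg adjustment over kept rows, and 3 members had an unadjusted p under 0.05. In RLKO 0 members were called by Cuffdiff's q at 0.05 or 0.1, and 1 had an unadjusted p under 0.05. HSPA8 and HSPB8 kept their direction in both genotypes under each scale and pseudocount.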
